A study of Mus musculus with 9 samples.

Results

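The genes described here are 10 of the 19938 genes measured in mouse ear skin: Itga2, Lmo7, Sox9, Ttc9, Cdc42ep3, Lipk, Slc5a9, Smpdl3a, Hephl1 and Gpld1. They were chosen by their measured log2 values, because the mean under topical anisomycin and the mean under imiquimod lay on opposite sides of the vehicle mean, so their differences from vehicle are given as a description, with no test. Each gene is represented by a probe set annotated with that symbol alone, and all 10 were found. RNA of whole ear skin came from female C57BL/6 mice, 7 to 9 weeks old, in 3 groups of 3 arrays. One group received anisomycin daily over 5 days, dissolved in 99.5% ethanol to 2 mg/ml, with 10 µl spread on either face of the ear. In the imiquimod group 10 mg of a cream with 5% imiquimod was put on both ear faces daily over 5 days. The labels call the remaining group vehicle and say neither which vehicle it was nor how long it was given, so ethanol and the cream base cannot be told apart from the drugs. No transgene or deletion is stated for any group. Nothing states that the arrays of a group came from separate mice, and p-values then measure only the spread between these samples.

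Anisomycin blocks peptide bond formation on the ribosome and switches on stress kinases such as p38 and JNK. Imiquimod is an agonist of Toll-like receptor 7, and its cream is a standard way to raise a psoriasis-like inflammation in mouse skin. The 10 genes come from different corners of skin biology. Itga2, Lmo7 and Cdc42ep3 serve adhesion and the cytoskeleton, Sox9 is a transcription factor of hair follicle stem cells and cartilage, and Ttc9 encodes a protein with tetratricopeptide repeats. Lipk, Smpdl3a and Gpld1 encode enzymes that cut lipids, phosphodiester bonds or lipid anchors, Slc5a9 a sugar transporter and Hephl1 a ferroxidase.

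Values are log2 expression values, so a difference of 1 is a change of 2-fold, and every difference is a difference of group means over 3 arrays each. SE is the standard error from limma, which in this balanced design is the same for all 3 comparisons of a gene. A gene is called where limma's Benjamini-Hochberg adjusted p is under 0.05 over all 19938 genes. Across the arrays, calls were frequent. Against vehicle, 45.6% of genes were called with anisomycin (22.3% higher, 23.3% lower) and 42.7% with imiquimod (20.4% higher, 22.4% lower). Between anisomycin and imiquimod 4059 genes or 20.4% were called, 10.8% higher and 9.59% lower with anisomycin. That number was 2523 to 2589 without anisomycin replicate 1 or 2 or without imiquimod replicate 1, 2 or 3. Groups were fully separated, array by array, for 51.3% of genes between anisomycin and vehicle, for 51.8% between imiquimod and vehicle and for 39.3% between anisomycin and imiquimod.

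The group means lay on opposite sides of vehicle for 3988 genes or 20.0%, with 11.9% above vehicle under anisomycin and below it under imiquimod, and 8.08% the other way round. Called in both comparisons with vehicle, in opposite directions, were 116 genes or 0.582%, of which 73 (0.366%) were higher with anisomycin and lower with imiquimod and 43 (0.216%) were lower with anisomycin and higher with imiquimod. With arrays centred on genes of stable rank the split was 53 and 53. For 260 genes or 1.3% the 3 groups did not overlap at all and vehicle lay in the middle. The count of 116 moved with single arrays. It was 227 without anisomycin replicate 3, 73 without anisomycin replicate 2, 62, 77 and 73 without imiquimod replicates 1, 2 and 3, 67 without vehicle replicate 1 and 58 without vehicle replicate 3. All 10 genes described here were among the 116. The rule of opposite means does not by itself require a call, but the genes were chosen from these same values, so this supports nothing. Both treatments are set against the same 3 vehicle arrays.

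**Figure D1:**
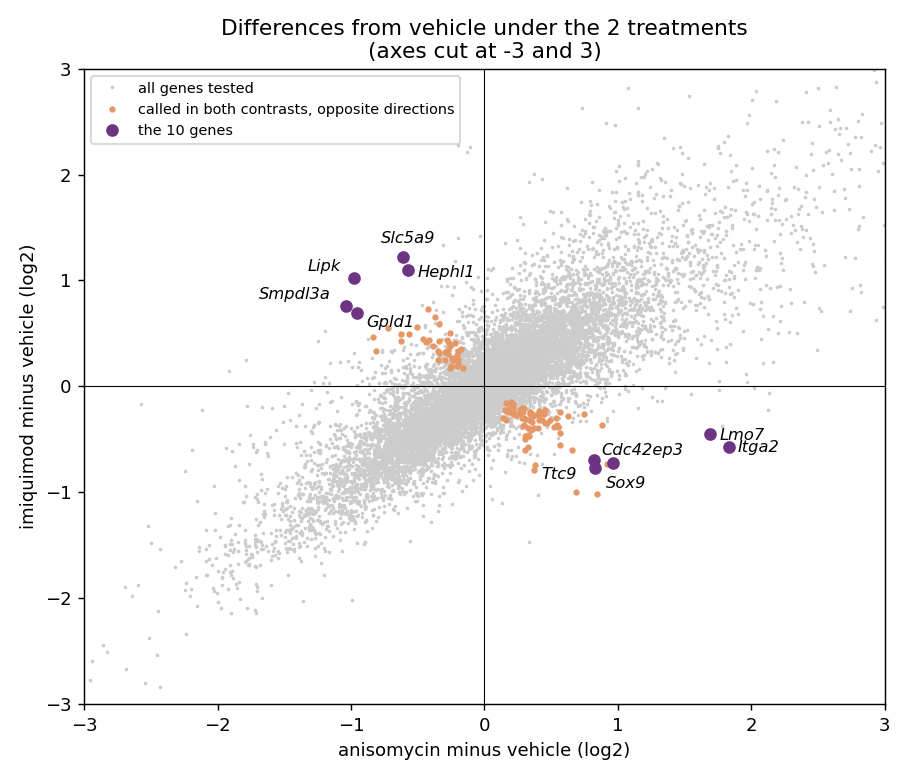
Each point is a gene, placed by its difference from vehicle under anisomycin (x axis, log2) and under imiquimod (y axis, log2), with 3 arrays a group and axes cut at -3 and 3. The 10 genes (purple) lie in the quadrants of opposite sign, 5 at 0.82 to 1.83 under anisomycin and -0.77 to -0.45 under imiquimod, 5 at -1.04 to -0.57 under anisomycin and 0.70 to 1.22 under imiquimod.

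Itga2, Lmo7, Sox9, Ttc9 and Cdc42ep3 were above vehicle under anisomycin and below it under imiquimod. Itga2 encodes the integrin alpha 2 subunit, which pairs with the beta 1 subunit into a collagen receptor of basal keratinocytes. It read 10.66, 10.16 and 9.74 on the anisomycin arrays, 7.70, 7.73 and 7.93 on the imiquimod arrays and 8.43, 8.21 and 8.42 on the vehicle arrays. All anisomycin arrays lay above, and all imiquimod arrays below, every vehicle array. The group means were 10.18 ± 0.46, 7.79 ± 0.13 and 8.35 ± 0.13 (SD, n = 3 each), which put anisomycin 1.83 above vehicle, a ratio of 3.56, and imiquimod at -0.57 (SE 0.19). The difference of 2.4 between anisomycin and imiquimod, a ratio of 5.27, was the largest of the 10 genes.

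Lmo7 encodes a protein with LIM and PDZ domains that sits at adherens junctions, where it binds afadin and alpha-actinin. It read 9.56, 9.15 and 8.99 with anisomycin, 6.93, 7.18 and 7.15 with imiquimod and 7.56, 7.48 and 7.58 with vehicle. The 3 groups were apart, and the vehicle arrays differed by far less than the anisomycin arrays. Anisomycin was 1.69 above vehicle, a ratio of 3.23 and imiquimod was at -0.45 (SE 0.13), the smallest imiquimod difference among the 10.

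Sox9 encodes a transcription factor with an HMG box that maintains hair follicle stem cells and directs cartilage formation. Its values were 10.90, 10.54 and 10.36 with anisomycin, 8.82, 8.99 and 8.95 with imiquimod and 9.59, 9.82 and 9.50 with vehicle. Again no array of 1 group reached into another group. Anisomycin was 0.96 above vehicle, a ratio of 1.95, and the imiquimod difference was -0.72 (SE 0.13). Ear skin holds both follicles and cartilage, and markers of both were lower than vehicle under both treatments. Of 14 cartilage genes such as Cytl1, Chad and Acan, 11 fell with anisomycin and 11 with imiquimod, and the mean level of the list was 6.58 to 6.77 with anisomycin, 6.75 to 6.79 with imiquimod and 7.41 to 7.68 with vehicle. Of 17 hair follicle genes 11 fell with anisomycin and 6 with imiquimod, with mean levels of 5.55 to 5.66, 5.67 to 5.97 and 5.99 to 6.2. In RNA of whole skin, fewer cells of a type and less RNA per cell cannot be told apart, and the part of these shifts in the Sox9 values was not tested.

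Ttc9 encodes a protein of tetratricopeptide repeats whose human counterpart was described as hormone-regulated in breast cancer cells. It read 8.47, 8.26 and 7.96 with anisomycin, 6.60, 6.68 and 6.63 with imiquimod and 7.46, 7.28 and 7.46 with vehicle. The groups did not overlap, and the imiquimod arrays lay close together (SD 0.04), the closest of the genes that were low there. Here the changes were nearly even, at 0.83 for anisomycin and -0.77 for imiquimod (SE 0.11).

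Cdc42ep3 encodes an effector of the small GTPase Cdc42 that binds septins. It read 8.69, 8.37 and 7.83 with anisomycin, 6.89, 6.62 and 6.85 with imiquimod and 7.37, 7.57 and 7.5 with vehicle. The groups did not overlap, though the lowest anisomycin array was close to the highest vehicle array. The differences were 0.82 with anisomycin and -0.70 with imiquimod (SE 0.18). For all 5 of these genes the anisomycin difference was the larger in size.

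**Figure D2:**
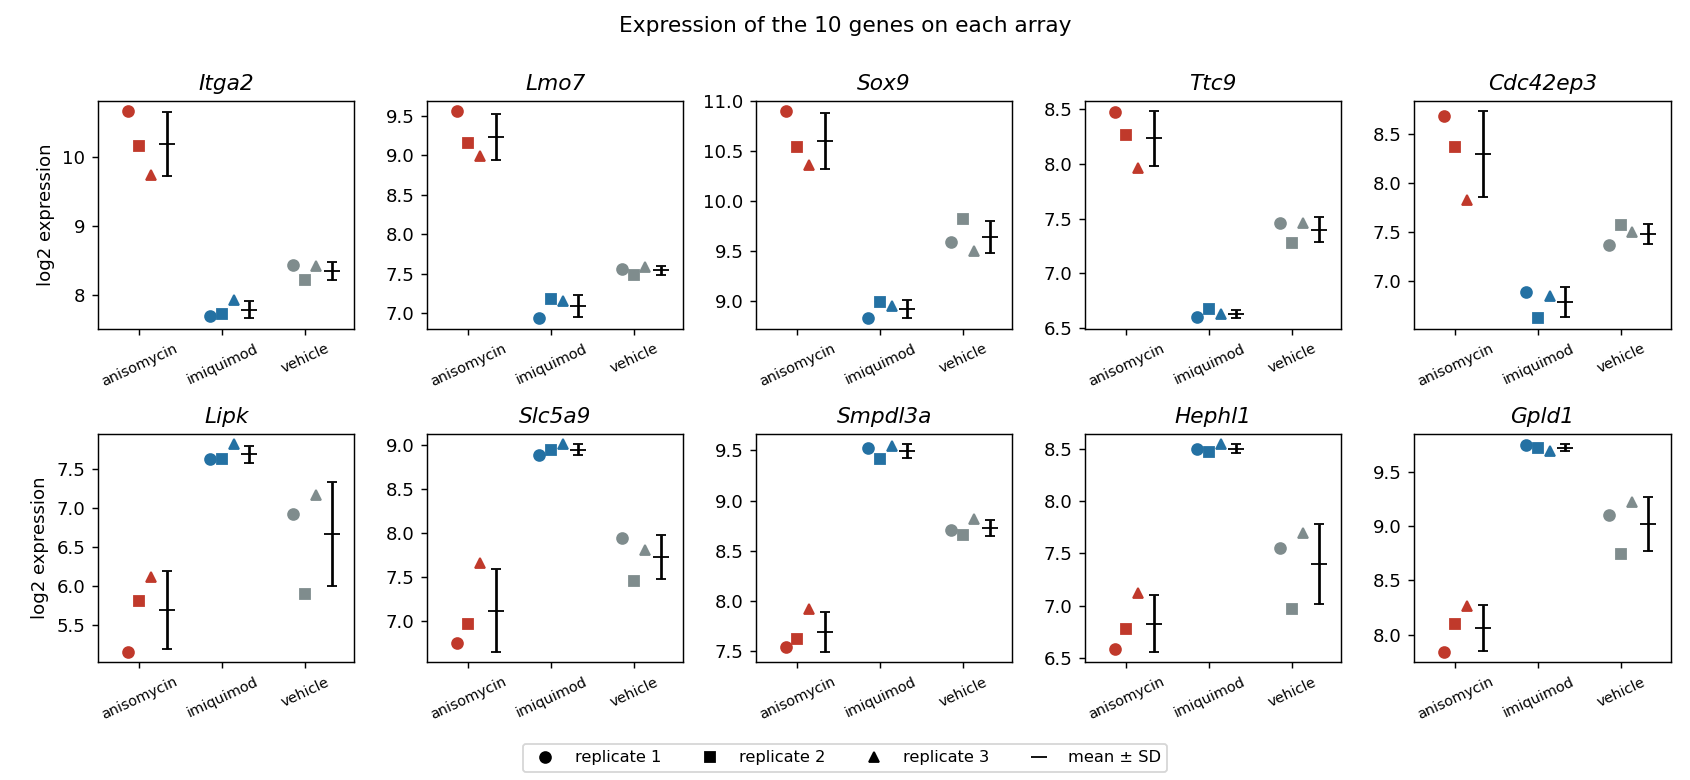
Log2 expression (y axis, a scale per panel) of the 10 genes on the 3 anisomycin, 3 imiquimod and 3 vehicle arrays, with a symbol for each replicate number and the mean ± SD beside each group. In the upper row anisomycin is highest and imiquimod lowest, in the lower row imiquimod is highest, and anisomycin replicate 1 lies farthest from vehicle in every panel.

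The other 5 genes, Lipk, Slc5a9, Smpdl3a, Hephl1 and Gpld1, were below vehicle under anisomycin and above it under imiquimod. Smpdl3a encodes a secreted phosphodiesterase related to acid sphingomyelinase that splits nucleotides and is, in human macrophages, a target of the liver X receptors. It read 7.54, 7.62 and 7.92 on the anisomycin arrays, 9.52, 9.41 and 9.54 on the imiquimod arrays and 8.71, 8.66 and 8.82 on the vehicle arrays. The 3 groups were wide apart. The anisomycin difference was -1.04, a ratio of 2.06 in favour of vehicle, and the imiquimod difference 0.76, a ratio of 1.69 (SE 0.10).

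Gpld1 encodes a phospholipase D that frees proteins from their glycosylphosphatidylinositol (GPI) anchor. It read 7.84, 8.10 and 8.26 with anisomycin, 9.74, 9.72 and 9.69 with imiquimod and 9.10, 8.74 and 9.22 with vehicle. No group overlapped another, and the imiquimod arrays were nearly equal (SD 0.03). The differences from vehicle were -0.96 with anisomycin and 0.70 with imiquimod (SE 0.13).

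Lipk encodes a lipase of the acid lipase family that, in human skin, is made by differentiating keratinocytes. It read 5.15, 5.81 and 6.12 with anisomycin, 7.63, 7.63 and 7.82 with imiquimod and 6.93, 5.90 and 7.17 with vehicle. Vehicle replicate 2 lay below the highest anisomycin array, so anisomycin and vehicle overlapped, while imiquimod was above all other arrays. The vehicle SD of 0.67 was the largest of the 10 genes. The differences were -0.98 with anisomycin and 1.03 with imiquimod (SE 0.32). Without vehicle replicate 2 they were -1.36 and 0.64.

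Hephl1 encodes zyklopen, a multicopper ferroxidase of the hephaestin family that is needed for normal hair in mice. It read 6.59, 6.78 and 7.12 with anisomycin, 8.50, 8.47 and 8.54 with imiquimod and 7.55, 6.97 and 7.69 with vehicle. As for Lipk, vehicle replicate 2 fell among the anisomycin arrays. The differences were -0.57 with anisomycin and 1.10 with imiquimod, a ratio of 2.15 (SE 0.18).

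Slc5a9 encodes a sodium-coupled transporter of mannose and other sugars. It read 6.75, 6.97 and 7.66 with anisomycin, 8.89, 8.95 and 9.01 with imiquimod and 7.94, 7.46 and 7.81 with vehicle. Anisomycin replicate 3 lay above vehicle replicate 2, and imiquimod stood clear of both groups. The differences were -0.61 with anisomycin and 1.22 with imiquimod, a ratio of 2.32 (SE 0.21), the largest imiquimod difference among the 10.

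All 10 genes separated imiquimod from vehicle and anisomycin from imiquimod without overlap, and 7 of 10 separated anisomycin from vehicle. Since the genes were picked for opposite means, nothing is read from these counts. Ranked within their direction by the smaller of their differences from vehicle, the 5 genes low with anisomycin held ranks 1 to 5 of 43, from Lipk at 0.98 to Hephl1 at 0.57. Lipn followed directly at 0.55. The 5 genes high with anisomycin held ranks 2, 4, 5, 8 and 10 of 73, with Ttc9 first at 0.77 and Lmo7 last at 0.45, between Kdelr3 at 0.55 and Emp1 at 0.44.

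Other genes with wide opposite movement were named by the same ranking. Dusp10, a phosphatase of p38 and JNK, was 0.85 above vehicle with anisomycin and at -1.01 with imiquimod (SE 0.21), which is rank 1 of 73. The small heat shock protein gene Hspb1 averaged 12.62 ± 0.05 with anisomycin, 10.97 ± 0.13 with imiquimod and 11.70 ± 0.14 with vehicle (SD, n = 3 each). The tissue factor gene F3, which starts blood clotting, was at 0.68 with anisomycin and -1.0 with imiquimod (SE 0.18). In the other direction Lipn, another lipase of differentiating keratinocytes, was at -0.72 and 0.55 (SE 0.18). Entpd5, a nucleoside diphosphatase of the endoplasmic reticulum, was at -0.50 and 0.56 (SE 0.14), and Apol7c at -0.63 and 0.50 (SE 0.17). These genes were likewise singled out by the differences given.

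The anisomycin arrays differed among themselves, and the 10 genes shared that difference. In all 10 genes anisomycin replicate 1 was farthest from the vehicle mean and replicate 3 nearest. The same order held for 26.5% of all genes, and for 47.9% of the genes called between anisomycin and imiquimod. SDs within the anisomycin group were 0.20 to 0.50 with a median of 0.29, against a median of 0.08 over all genes. In the imiquimod group the 10 genes had SDs of 0.03 to 0.15 with a median of 0.08 (all genes 0.06), and in the vehicle group 0.06 to 0.67 with a median of 0.15 (all genes 0.10). Vehicle replicate 2 was the lowest vehicle array for all 5 genes that were low with anisomycin and for 3 of the 5 that were high. Across the 9 arrays, which fall into 3 groups of 3, Pearson's r between genes of the same direction was 0.93 to 0.995 over 20 pairs, and between genes of opposite direction -0.996 to -0.841 over 25 pairs. The genes were chosen by the order of these group means, so the sign of r follows from that choice and nothing is read from it.

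Some marker lists also differed between arrays of a group, and others, such as the basal keratinocyte list, hardly did. Of 8 suprabasal keratinocyte genes such as Krt10, Lor and Krt2, 4 were lower with anisomycin than with imiquimod and none higher. Against vehicle 4 of the 8 rose and 3 fell with anisomycin, and 4 rose and 0 fell with imiquimod. Their mean level was 10.71, 11.12 and 11.37 on anisomycin replicates 1, 2 and 3, between 11.61 and 11.69 with imiquimod, and 11.18, 10.66 and 10.97 on vehicle replicates 1, 2 and 3. Anisomycin replicate 1 and vehicle replicate 2 were thus the low arrays of their groups, as they were for Lipk, Slc5a9, Smpdl3a, Hephl1 and Gpld1. Of 11 sebaceous gland genes 4 were lower and 1 higher with anisomycin than with imiquimod, with mean levels of 8.18, 8.75 and 9.01 on anisomycin replicates 1, 2 and 3, 9.08 to 9.52 with imiquimod and 8.48 to 8.89 with vehicle. This list was split against vehicle, where 2 of the 11 rose and 4 fell with anisomycin, and 4 rose and 2 fell with imiquimod. Of 10 endothelial genes 4 were higher and none lower with anisomycin than with imiquimod. Against vehicle 1 rose and 3 fell with anisomycin, and 0 rose and 5 fell with imiquimod. Their mean levels were 7.19 to 7.58 with anisomycin, 6.88 to 6.93 with imiquimod and 7.18 to 7.62 with vehicle. Basal keratinocyte genes averaged 10.33 to 10.37, 10.05 to 10.14 and 10.44 to 10.57, and 3 of 8 were higher with anisomycin than with imiquimod. These means hide a split list, since 3 of the 8 rose and 3 fell against vehicle with either treatment. Of 11 adipocyte genes 10 fell with anisomycin and 10 with imiquimod, and of 11 fibroblast genes likewise 10 and 10. The part of these lists in the values of the 10 genes was not tested. Signal over background was not tested either, so no marker is called absent.

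**Figure D3:**
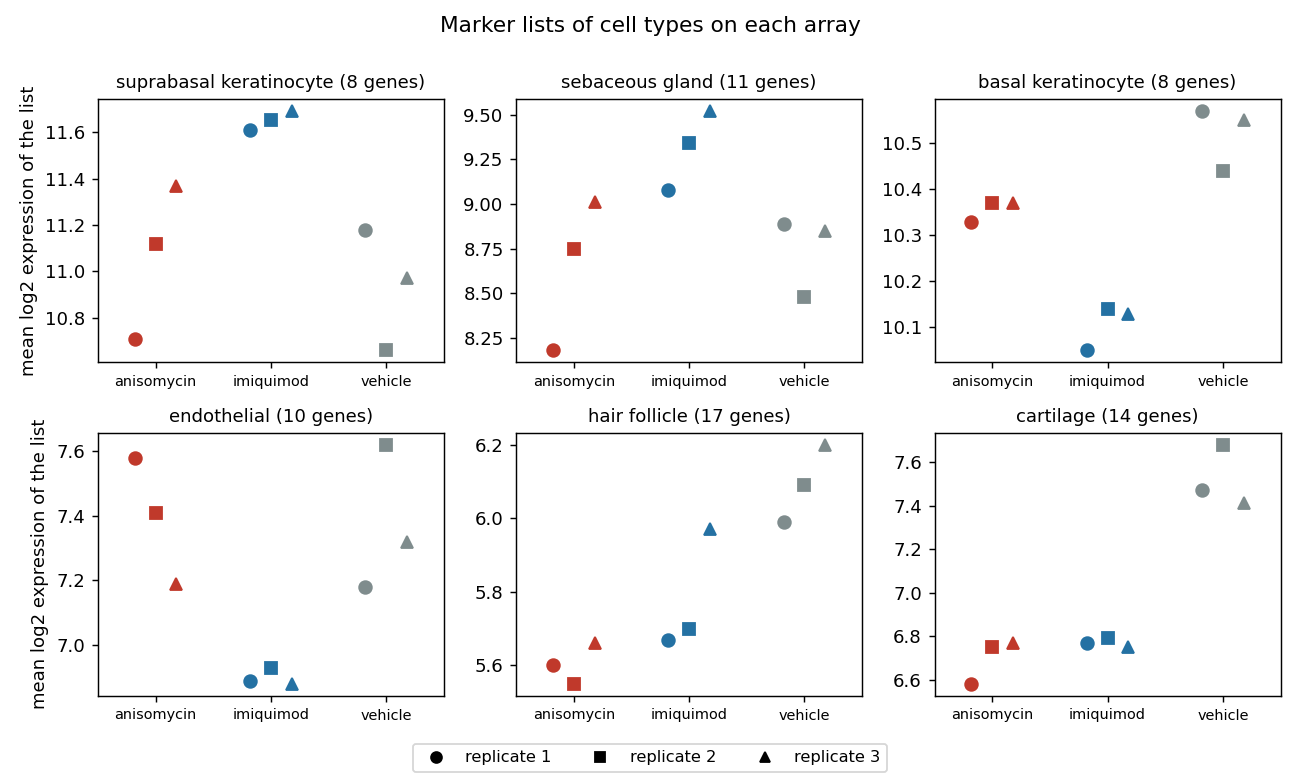
Mean log2 expression (y axis, a scale per panel) of 6 marker lists on each array, with anisomycin, imiquimod and vehicle along the x axis and a symbol per replicate number. The suprabasal and sebaceous lists are lowest on anisomycin replicate 1 within its group, at 10.71 and 8.18, and the cartilage list is at 6.58 to 6.79 on all treated arrays, below the 7.41 to 7.68 of vehicle.

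RefSeq promoter windows, each upstream of a start that RefSeq's table takes for the gene, were found for 6 of the 10 genes, 7 windows in all on GRCm38.p6, since Lmo7 has 2. The windows of 250 bases were searched on both strands for TGANTCA (the AP-1 site, a target of stress kinases), ACAATG (a SOX-type site), GGGCGG (the GC box) and TATAAA (the TATA box). TGANTCA was in 0 of the 7 windows and in 6.75% of all 32851 windows of that length, and ACAATG in 0 of 7 and 10.7%. GGGCGG was found 5 times upstream of Cdc42ep3, with overlapping matches, 3 times upstream of Lmo7 in 1 of its windows and 2 times upstream of Ttc9, and in 32.7% of all windows. TATAAA was found once, upstream of Hephl1, against 12.4% of all windows. Itga2 and Gpld1 held none of these letters. Windows of 2 genes of each direction are shown as examples, a direction being what the genes were chosen by. They are chr12:81630999-81631248 (plus strand, Ttc9), chr17:79355092-79355341 (minus strand, Cdc42ep3), chr9:15112109-15112358 (minus strand, Hephl1) and chr13:24942902-24943151 (plus strand, Gpld1), each written 5′ to 3′ along its gene and ending at the base before that start, with motif matches in capitals. In RefSeq's gene table the span of Gpld1 begins upstream of its window, which therefore lies inside the gene, and the span of Hephl1 overlaps its window.
Ttc9: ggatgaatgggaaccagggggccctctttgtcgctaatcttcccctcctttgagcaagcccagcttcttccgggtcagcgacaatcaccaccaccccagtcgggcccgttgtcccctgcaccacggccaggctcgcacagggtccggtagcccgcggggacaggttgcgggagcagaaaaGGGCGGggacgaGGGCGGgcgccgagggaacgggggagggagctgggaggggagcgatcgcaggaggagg
Cdc42ep3: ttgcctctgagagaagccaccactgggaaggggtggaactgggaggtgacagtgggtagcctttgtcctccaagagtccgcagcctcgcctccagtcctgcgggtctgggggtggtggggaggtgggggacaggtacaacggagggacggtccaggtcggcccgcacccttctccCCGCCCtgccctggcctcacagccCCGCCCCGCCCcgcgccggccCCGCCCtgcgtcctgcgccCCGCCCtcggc
Hephl1: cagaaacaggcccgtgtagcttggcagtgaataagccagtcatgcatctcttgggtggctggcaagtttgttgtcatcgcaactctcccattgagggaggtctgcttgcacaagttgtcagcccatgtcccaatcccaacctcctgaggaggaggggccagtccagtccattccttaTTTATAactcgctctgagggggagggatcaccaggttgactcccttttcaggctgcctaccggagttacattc
Gpld1: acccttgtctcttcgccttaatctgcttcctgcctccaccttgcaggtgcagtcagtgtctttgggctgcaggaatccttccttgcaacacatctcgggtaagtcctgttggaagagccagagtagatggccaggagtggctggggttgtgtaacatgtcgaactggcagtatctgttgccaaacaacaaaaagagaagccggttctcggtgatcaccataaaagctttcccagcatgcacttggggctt
These matches describe letters in the windows and show no binding.

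To see whether kin of the 10 genes moved likewise, 198 relatives and partners in 11 lists were read from the same fit, taken by family or partnership. The counts of each list below stand beside 10.8% of all genes called higher and 9.59% lower with anisomycin than with imiquimod. For the comparisons with vehicle these shares were 22.3% higher and 23.3% lower with anisomycin, and 20.4% higher and 22.4% lower with imiquimod. Between anisomycin and imiquimod 65 of the 198 or 32.8% were called, 33 higher and 32 lower with anisomycin, against 20.4% of all genes. The 198 were also called more often against vehicle, 67.7% against 45.6% with anisomycin and 60.1% against 42.7% with imiquimod. So the excess was not particular to the comparison of the treatments. The median difference of the 198 between the treatments was -0.00, against 0.01 over all genes. Called in both comparisons with vehicle in opposite directions were 3 of the 198 or 1.52%, against 0.582% of all genes: Lipn, Asah2 and Cdc42ep5. These are few genes, and the lists were chosen with earlier results of these data known, so nothing is read from this share.

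Among 17 other integrin subunits, 8 were higher and 0 lower with anisomycin than with imiquimod, and the median difference was 0.29. Itga3, the alpha subunit of a laminin receptor, averaged 10.17 ± 0.20 with anisomycin, 9.03 ± 0.04 with imiquimod and 8.07 ± 0.20 with vehicle (SD, n = 3 each), so that it was above vehicle under both treatments, unlike Itga2. The difference between the treatments was 1.15 (SE 0.12, limma adjusted p = 0.00037). Itga5, of the fibronectin receptor, differed by 0.83 (SE 0.17), Itgb6, whose product helps activate TGF-beta, by 0.78 (SE 0.11), and Itga1, of another collagen receptor, by 0.58 (SE 0.13). Against vehicle Itga5 and Itga1 rose with anisomycin, by 0.95 and 0.50, and were at 0.12 and -0.08 with imiquimod, not called. The call of Itga1 between the treatments was lost under 2 of 17 alternatives (adjusted p up to 0.0573). Against vehicle 9 subunits rose and 4 fell with anisomycin, and 5 rose and 6 fell with imiquimod.

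Of 18 measured genes of adherens junction and LIM proteins, the list built around Lmo7, 6 were higher and 3 lower with anisomycin than with imiquimod. Actn1, the actin crosslinker alpha-actinin 1, averaged 11.03 ± 0.17 with anisomycin, 10.04 ± 0.01 with imiquimod and 9.51 ± 0.05 with vehicle (SD, n = 3 each), a difference of 0.99 between the treatments (SE 0.08, limma adjusted p = 0.000109). Lower with anisomycin than with imiquimod were the adhesion molecules Nectin1 at -0.56 (SE 0.11) and Nectin4 at -0.47 (SE 0.13), and Ssx2ip, which binds afadin, at -0.54 (SE 0.10). The call of Nectin4 between the treatments was lost under 5 of 17 alternatives (adjusted p up to 0.109). Nectin1 rose against vehicle with both treatments, by 0.33 with anisomycin and 0.89 with imiquimod. Its call with anisomycin was lost under 6 of 17 alternatives (adjusted p up to 0.104). Nectin4 rose by 0.47 with imiquimod only, a call lost under 1 alternative (0.058). Ssx2ip was at -0.54 with anisomycin and not called with imiquimod. Most of the list rose with both treatments, 13 of 18 with anisomycin and 11 with imiquimod.

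Of 23 SOX factors and follicle regulators none was called oppositely by the treatments, against 0.582% of all genes, so little can be read from this in a list of that size. Of these 23 genes, 13 fell and 3 rose with anisomycin, 14 fell and 2 rose with imiquimod, and 2 were higher and 3 lower between the treatments. Lgr6, a receptor of epidermal stem cells, averaged 6.70 ± 0.39 with anisomycin, 7.66 ± 0.17 with imiquimod and 8.54 ± 0.12 with vehicle (SD, n = 3 each), a difference of -0.96 between the treatments (SE 0.17, limma adjusted p = 0.00526). Sox21, which acts in the hair shaft, differed by -0.79 (SE 0.13). Sox18, a factor of vessels and follicles, was 0.53 higher with anisomycin than with imiquimod (SE 0.14) and Sox4 0.47 higher (SE 0.13), and both fell against vehicle with imiquimod and were not called with anisomycin. Calls of Sox4 and Sox18 between the treatments were each lost under 5 of 17 alternatives (adjusted p up to 0.11 and 0.0907), and those with imiquimod against vehicle under 11 of 17 for Sox18 and 3 for Sox4. The imiquimod differences were -0.45 to -0.27 for Sox18 and -0.56 to -0.37 for Sox4 over the 17 alternatives.

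In the list of 6 genes of the TTC9 family and the tropomyosins, Ttc9b and Ttc9c were not called between the treatments. Among the actin-binding tropomyosins Tpm1 and Tpm4 were higher with anisomycin than with imiquimod, by 0.90 (SE 0.13, limma adjusted p = 0.00207) and 0.48 (SE 0.06). Against vehicle Tpm1 fell with both treatments and Tpm4 rose with both. All 14 skeletal muscle markers also fell with both (medians -1.88 with anisomycin and -1.83 with imiquimod), and their part in the tropomyosin values was not tested.

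Cdc42 effectors and septins gave 5 higher and 3 lower of 22. Cdc42ep5, a close relative of Cdc42ep3, moved oppositely to it: it averaged 7.69 ± 0.12 with anisomycin, 8.37 ± 0.10 with imiquimod and 7.96 ± 0.03 with vehicle (SD, n = 3 each). Its difference was -0.68 between the treatments (SE 0.07, limma adjusted p = 0.000482), -0.27 for anisomycin against vehicle (adjusted p = 0.0137) and 0.41 for imiquimod against vehicle (adjusted p = 0.0014). The call with anisomycin was lost with arrays centred on their medians, without anisomycin replicate 2 and with the mean of its probe sets (adjusted p up to 0.259). With the mean of its probe sets the differences were -0.08 with anisomycin, 0.24 with imiquimod and -0.32 between the treatments. Wasl, which drives actin branching, was 0.77 higher with anisomycin than with imiquimod (SE 0.07), the kinase gene Pak2 0.45 higher (SE 0.09), and the kinase gene Cdc42bpg differed by -0.70 (SE 0.15).

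**Figure D4:**
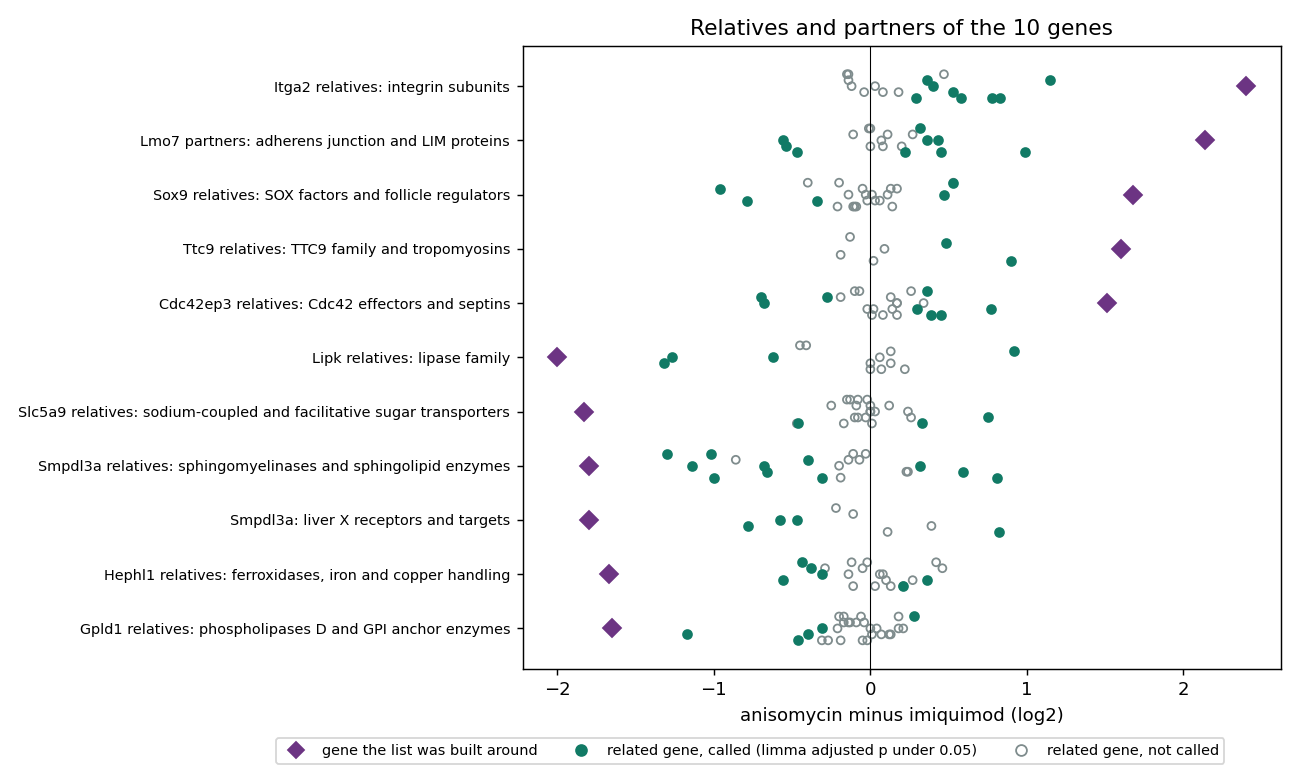
Difference of anisomycin minus imiquimod (x axis, log2, 3 arrays a group) for the relatives and partners of each gene, 1 list per line, filled where limma's adjusted p was under 0.05, with the gene the list was built around as a diamond. The diamonds lie beyond their own lists, at 1.51 to 2.4 and -2.0 to -1.65, as their choice by these differences leads to, while 8 of 17 integrin subunits are filled and to the right of 0.

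Among the relatives of Lipk, of 13 lipase genes 1 was higher and 3 were lower with anisomycin than with imiquimod. Lipn averaged 5.83 ± 0.21 with anisomycin, 7.10 ± 0.15 with imiquimod and 6.55 ± 0.37 with vehicle (SD, n = 3 each). It was at -1.27 between the treatments (SE 0.18, limma adjusted p = 0.00167), fell by 0.72 with anisomycin (adjusted p = 0.00791) and rose by 0.55 with imiquimod (adjusted p = 0.0319). The call with imiquimod was lost without anisomycin replicate 2, without imiquimod replicate 1 or 3 and without vehicle replicate 2 (adjusted p up to 0.109), while the difference was 0.34 to 0.70 over all 17 alternatives. Lipm, also a lipase of differentiating keratinocytes, was at -1.32 between the treatments (SE 0.19) and at -1.08 with anisomycin, and at 0.23 with imiquimod it was not called. The endothelial lipase gene Lipg went the other way, 0.92 higher with anisomycin than with imiquimod (SE 0.12), having risen with both, by 2.95 and 2.03. Pnpla1, a lipase-family enzyme of epidermal ceramide synthesis, rose with both treatments, by 1.51 with anisomycin and 1.30 with imiquimod, and at 0.22 between them was not called (limma adjusted p = 0.439). Pnpla3, a lipid droplet enzyme, fell with both and differed by -0.62 (SE 0.10).

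Sphingomyelinases and other sphingolipid enzymes, the relatives of Smpdl3a, were called in 11 of 20 cases between the treatments, 3 higher and 8 lower with anisomycin. Asah2, a neutral ceramidase, averaged 7.82 ± 0.21 with anisomycin, 9.12 ± 0.03 with imiquimod and 8.66 ± 0.15 with vehicle (SD, n = 3 each). Its differences were -1.30 between the treatments (SE 0.11, limma adjusted p = 0.000117), -0.83 with anisomycin (adjusted p = 0.000157) and 0.46 with imiquimod (adjusted p = 0.00604), and these calls held under all 17 alternatives. Smpdl3b, the nearest relative, rose with both treatments, by 0.51 with anisomycin and 1.65 with imiquimod, and differed by -1.14 (SE 0.11). The neutral sphingomyelinase gene Smpd3 did the same, by 0.73 and 1.74, and differed by -1.02 (SE 0.14). The alkaline ceramidase gene Acer1, active in epidermis, fell by 1.14 with anisomycin, was at -0.14 with imiquimod, not called, and differed by -1.0 (SE 0.21).

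Liver X receptors and their targets were mixed, with 1 of 8 higher and 3 lower with anisomycin than with imiquimod. The cholesterol exporter gene Abca1 was 0.82 higher (SE 0.15, limma adjusted p = 0.00586), opposite to Smpdl3a in this comparison. Against vehicle Abca1 fell by 0.99 with imiquimod, and at -0.17 with anisomycin it was not called. The desaturase gene Scd2 differed by -0.78 (SE 0.12), Apoe, which carries lipids, by -0.58 (SE 0.15) and the lipogenic factor Srebf1 by -0.47 (SE 0.08). Against vehicle Scd2 fell by 0.53 with anisomycin, and at 0.25 with imiquimod it was not called. Apoe and Srebf1 fell with both treatments against vehicle. The call of Apoe between the treatments was lost under 5 of 17 alternatives (adjusted p up to 0.0945) and the call with imiquimod against vehicle under 1 (0.0508).

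Iron and copper genes around Hephl1 gave 2 higher and 4 lower of 21 between the treatments. Heph, the ferroxidase hephaestin, averaged 5.46 ± 0.23 with anisomycin, 5.85 ± 0.09 with imiquimod and 6.35 ± 0.14 with vehicle (SD, n = 3 each) and fell against vehicle with both. Its difference of -0.38 between the treatments (SE 0.12, limma adjusted p = 0.0497) was not called under 11 of 17 alternatives. The transferrin receptor gene Tfrc differed by -0.44 (SE 0.11), the siderophore-binding lipocalin gene Lcn2 by -0.56 (SE 0.14) and the copper pump gene Atp7a by 0.36 (SE 0.06). Lcn2 rose with both treatments, by 4.01 and 4.57, and of 12 neutrophil markers 10 rose with anisomycin and 10 with imiquimod, which was not tested as a part of it. The calls of Tfrc and Lcn2 between the treatments were lost under 4 and 3 of 17 alternatives (adjusted p up to 0.0806 and 0.0702).

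Among 22 sugar transporter genes, 2 were higher and 1 lower with anisomycin than with imiquimod, against 10.8% and 9.59% of all genes. The fructose transporter gene Slc2a5 was 0.75 higher (SE 0.15, limma adjusted p = 0.00901), with a fall by 0.69 against vehicle under imiquimod. Slc5a3, which imports inositol, was 0.33 higher (SE 0.07), and this call was lost under 2 of 17 alternatives (adjusted p up to 0.0577). It fell against vehicle with both treatments, at -0.40 with anisomycin and -0.73 with imiquimod. The main glucose transporter gene Slc2a1 rose with both treatments, by 1.34 with anisomycin and 1.80 with imiquimod, and differed by -0.46 (SE 0.07). Against vehicle 5 of the 22 rose and 5 fell with anisomycin, and 5 rose and 6 fell with imiquimod. Slc5a1 rose by 2.88 with anisomycin and 3.35 with imiquimod, and Slc5a8 by 3.14 and 3.17. Neither was called between the treatments, and both rose with anisomycin, where Slc5a9 was below vehicle.

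Of 28 phospholipases D and GPI anchor enzymes, 12 rose and 4 fell with anisomycin, 14 rose and 3 fell with imiquimod, and 1 was higher and 4 were lower between the treatments. Pld4, an exonuclease of myeloid cells despite its name, rose with both, by 0.49 with anisomycin and 1.66 with imiquimod, and differed by -1.17 (SE 0.09, limma adjusted p = 9e-05). Of 12 macrophage markers 11 rose with anisomycin and 10 with imiquimod, and 7 were higher and 1 lower with anisomycin than with imiquimod, and their part in the Pld4 values was not tested. The GPI anchor genes Pigb, Pigs and Pgap2 differed by -0.46 (SE 0.13), -0.40 (SE 0.11) and -0.31 (SE 0.08). Their calls were lost under 7, 5 and 6 of 17 alternatives (adjusted p up to 0.114, 0.101 and 0.104).

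The genes outside the 10 whose values over the 9 arrays most resembled the mean profile of the 5 genes high with anisomycin were Fat1 (Pearson r = 0.995), Nceh1 (0.992), Rbpj (0.991) and Cnksr1 (0.99). Fat1, a giant protocadherin, averaged 10.08 with anisomycin, 9.14 with imiquimod and 9.53 with vehicle. Rbpj, the DNA-binding partner of Notch, averaged 8.87, 8.23 and 8.46. For the 5 genes low with anisomycin they were Sema4b (0.989), Psme4 (0.986), Plek2 (0.984) and Atox1 (0.984). Atox1, a copper chaperone, averaged 8.75 with anisomycin, 9.37 with imiquimod and 8.97 with vehicle. Gene by gene, the nearest was Cnksr1 for Itga2 (r = 0.992), Dnmbp for Lmo7 (0.992), Fat1 for Sox9 (0.986) and Ttc9 (0.993), and Bmpr1b for Cdc42ep3 (0.993). It was Psme4 for Lipk (0.998), Wnt10a for Slc5a9 (0.985), Asah2 for Smpdl3a (0.986) and Gpld1 (0.988), and Acpp for Hephl1 (0.987). These correlations describe 9 arrays that fall into 3 groups, so they rest mainly on the order of the group means and on the shared array effects.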

How the data were processed

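The authors deposited 1 table of log2 expression values from Affymetrix Mouse Gene 1.0 ST arrays. They were made with RMA, which corrects background and normalizes by quantiles, per the submitters' processing notes. The sources used here give no version for it. RMA can shrink differences of dim genes. Values ran from 2.385 to 13.97.

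Of 35556 probe sets, 21789 had 1 gene symbol in the platform annotation, 1621 several and 12146 none. Those with 1 were used, keeping per gene the probe set of highest mean, which left 19938 genes. Promoter windows are RefSeq's (GRCm38.p6), and gene coordinates are not printed because the table names no build.

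The 9 arrays entered a single limma fit (version 3.58.1, R 4.3.3) of 3 group means, without covariates, tested two-sided with Benjamini-Hochberg adjustment over all genes. With 3 arrays a group an exact permutation test reaches p = 0.1 at best. The fit was checked on simulated data with independent noise for each gene. The anisomycin arrays here shared deviations across genes, so that check does not bear on how reliable these calls are. The 10 genes and all lists were chosen with earlier results of these data known. Named relatives are, per list, up to 4 called genes with the largest difference between the treatments, and any called oppositely. Further genes were named by rank of the smaller difference, by correlation or by level in a marker list. Kdelr3 and Emp1 were named as neighbours of Lmo7 in rank. Ttc9b, Ttc9c, Pnpla1, Slc5a1 and Slc5a8 were named after their values were seen. Alternatives were 3 scalings, a trended variance prior, dropping the 30% of genes with the lowest means, averaged probe sets, fits of only the groups compared, a replicate block and leaving out each array.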

Additional observations from a re-analysis of the deposited data

How the results depend on the processing

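The 10 genes were chosen on these differences and every alternative reuses the same arrays, so what follows for them is a description and shows no robustness. All 10 were on opposite sides of vehicle under all 17 alternatives, which is the rule they were chosen by. The number called in both directions was 5 to 10 when 1 array was left out, and 7 with arrays centred on their medians and in fits of only the 2 groups compared. By gene, Sox9, Ttc9, Smpdl3a and Gpld1 were called in both comparisons with vehicle under all 17 alternatives. Cdc42ep3 was so called under 16, Lmo7 under 14, Hephl1 under 11, Itga2 and Slc5a9 under 8 each and Lipk under 7. Leaving out 1 array, which takes samples from the fit, gave 58 to 227 genes called oppositely (against 116) and 2523 to 4766 called between the treatments (against 4059). Counts of called relatives stayed within 1.5 times under every alternative, at 46 to 78 of 198 between the treatments when 1 array was left out. The imiquimod difference of Smpdl3a was 0.66 after cyclic loess, in place of 0.76. Replicate numbers did not pair the arrays: deviations of same-numbered arrays correlated at -0.201 to 0.196, above 0.1 in 2 of 9 pairs. With the replicate block 98 genes were called oppositely and 3734 between the treatments, and 9 of the 10 genes were called in both directions. Scalings moved the median of all genes by less than 0.1. Signal over background was not used here, which limits what can be said of dim genes.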
